A study of Mus musculus with 6 samples.

Results

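The constitutive proteasome subunits are the 32 genes of the standard 20S core and 19S cap, taken without the interferon-inducible subunits and found in the count table by matching gene symbols to its Ensembl IDs. All 32 were found among the 55359 rows of the table, and all 32 passed the filter on low counts. They comprise 7 genes of the alpha ring (Psma1 to Psma7), 7 of the beta ring (Psmb1 to Psmb7), 6 ATPases (Psmc1 to Psmc6), 3 other subunits of the base of the cap (Psmd1, Psmd2 and Psmd4), 8 lid subunits (Psmd3, Psmd6 to Psmd8 and Psmd11 to Psmd14) and Psmd5, an assembly chaperone of the cap. Their expression was compared between mouse myeloid-derived suppressor cells (MDSCs, a class of immature, T cell-inhibiting myeloid cells) transfected with mitochondrial DNA (mtDNA) and blank cells. The mtDNA group had 3 RNA-seq libraries from cells given 250 ng/ml mtDNA with a lipid transfection reagent (spelt Lipofactamine 2000 in the labels) for 12 h, and the blank group had 3 libraries from cells labelled blank, with no statement on whether they received the lipid reagent. Both groups came from C57BL/6 bone marrow cultured over 4 days in 40 ng/ml GM-CSF plus 40 ng/ml IL-6, from which polymorphonuclear MDSCs were isolated with a kit. The labels give no genetic change, age, number of mice or statement on separate cultures. The p-values thus cover the variation among 6 libraries, part or all of which may be technical. With mtDNA the one DNA used, its effect cannot be told apart from that of transfected DNA in general or of the reagent.

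The proteasome is the main protease of the cytosol and nucleus. Its barrel-shaped 20S core encloses the catalytic sites of the beta rings between gated alpha rings, and the 19S cap recognises, deubiquitinates, unfolds and feeds in substrates tagged with ubiquitin. Interferons induce 3 alternative catalytic subunits, which replace Psmb5, Psmb6 and Psmb7 in newly made particles to form the immunoproteasome, and the PA28 cap, which favours the supply of peptides for MHC class I. A subunit gene that serves both kinds of particle is therefore counted among the constitutive members.

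The libraries held 4018360 to 4911103 counts. The TMM factors that scale them for composition were 0.947 to 0.966 in mtDNA and 1.04 to 1.05 in blank libraries, so the scaling itself differed between groups. Of 10 neutrophil markers 1 (10%) was higher in mtDNA cells by the test described below (Ngp) and 0 were lower. Over all tested genes 11.9% were higher and 5.98% lower. At an unadjusted p under 0.05 edgeR counted 2 of the neutrophil markers as lower and DESeq2 0. Their summed level was 7762 to 8352 CPM (read counts scaled to library size in megareads, after TMM correction) in mtDNA and 7458 to 7847 CPM in blank libraries. Defining neutrophil genes were unequal in level, since Mmp8 averaged 2558 and 2545 CPM in mtDNA and blank libraries and Ly6g 5.81 and 4.87 CPM. Of 8 monocyte and macrophage markers 6 were higher in mtDNA cells in edgeR and 4 in DESeq2. The summed level of the 8 was 4348 to 4567 CPM in mtDNA and 3587 to 3740 CPM in blank libraries. Among them Csf1r averaged 1552 and 1424 CPM and Ly6c2 968 and 538 CPM in mtDNA and blank libraries. Cx3cr1 of the same list was near the floor, at 2.17 and 2.34 CPM, and was not called. Both groups thus held transcripts of most of these markers, and which cells they came from was not tested. The 7 dendritic cell markers summed to 450 to 454 CPM in mtDNA and 444 to 449 CPM in blank libraries, most of it from Itgax. Xcr1 was near absent in both groups, with 0 reads in each mtDNA library and 0 or 1 in each blank library. The 7 markers of eosinophils, basophils and mast cells summed to 212 to 228 and 185 to 199 CPM, with 1 called higher (Mcpt8). Markers of lymphocytes summed to 18.1 to 24.0 CPM in mtDNA and 18.4 to 18.6 CPM in blank libraries, and the 4 erythroid markers stayed below the count filter. The part of these other cell types in the values that follow was not tested. In these bulk samples, fewer cells of a type and less RNA per cell cannot be told apart.

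Promoter sequences are shown for the 3 risen subunits with the smallest p among those whose promoter held a searched motif. A rise and a motif were conditions of this choice, so neither is a finding about the sequences shown. Each is the stretch of 250 bases before the RefSeq start (build GRCm38.p6), written 5′ to 3′ on the plus strand, on which all 3 genes lie. Capitals mark matches to the letters of the site of nuclear respiratory factor 1 (a different protein from NFE2L1) and of CCAAT, the box bound by NF-Y.
Psma4, chr9:54950609-54950858: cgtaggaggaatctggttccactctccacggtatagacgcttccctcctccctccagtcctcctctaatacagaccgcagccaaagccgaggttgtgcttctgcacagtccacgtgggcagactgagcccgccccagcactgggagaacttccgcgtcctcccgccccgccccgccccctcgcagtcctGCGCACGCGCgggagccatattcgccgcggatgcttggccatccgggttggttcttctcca
Psma3, chr12:70974373-70974622: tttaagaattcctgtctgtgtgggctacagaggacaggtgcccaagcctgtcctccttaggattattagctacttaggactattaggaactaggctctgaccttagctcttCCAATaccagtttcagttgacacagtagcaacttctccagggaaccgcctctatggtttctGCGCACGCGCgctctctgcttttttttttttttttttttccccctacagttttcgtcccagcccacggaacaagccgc
Psma2, chr13:14612992-14613241: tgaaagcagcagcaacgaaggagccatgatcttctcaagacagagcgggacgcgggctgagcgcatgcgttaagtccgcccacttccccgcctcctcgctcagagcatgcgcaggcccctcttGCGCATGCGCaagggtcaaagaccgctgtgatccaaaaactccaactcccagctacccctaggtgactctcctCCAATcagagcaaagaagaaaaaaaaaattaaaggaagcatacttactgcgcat

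The question the design addresses is how mtDNA changes gene expression in MDSCs, here for the standard proteasome. The answer in these counts was small and uneven: 7 of the 32 members were higher in mtDNA cells, 1 was lower and 24 did not pass the test. The genes that rose were the alpha ring genes Psma2, Psma3, Psma4 and Psma5, the catalytic beta ring genes Psmb6 and Psmb7, and the lid gene Psmd8. Psmd5 fell. None of the 32 changed by as much as 2-fold, with log2 fold changes (mtDNA minus blank) of -0.34 to 0.46. The test was edgeR's quasi-likelihood test over 11190 genes, with Benjamini-Hochberg adjustment over all of them and a threshold of 0.05.

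Of the members 21.9% were called higher and 3.12% lower, against 11.9% and 5.98% of all tested genes. The median log2 fold change was 0.05 over the members and -0.01 over all tested genes, a difference of 0.07. It was 0.04 in DESeq2, 0.05 without a filter and 0.06 to 0.09 when a library was left out, the highest without blank 3. Scaling factors shift all genes alike and leave this difference as it is, but they set the sign of the member median itself, which was -0.021 with upper-quartile factors and -0.064 with library totals, which moved the median of all genes to -0.13. Under library totals 3 members (9.38%) were higher, beside 7.69% of all genes, and 5 were lower, beside 21.1%, so the members then stood near or below the background. Upper-quartile factors gave 5 members higher, beside 8.67% of all genes, and 3 lower, beside 13.4%. DESeq2 called 5 higher, beside 7.17% of all genes, and 0 lower, beside 1.34%, with 1 lower at an unadjusted p under 0.05. The members whose libraries did not overlap between groups numbered 11 higher (34.4%) and 3 lower (9.38%), beside 17.9% and 15.6% of all tested genes. The share without overlap and lower was thus below that of all genes.

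**Figure D1:**
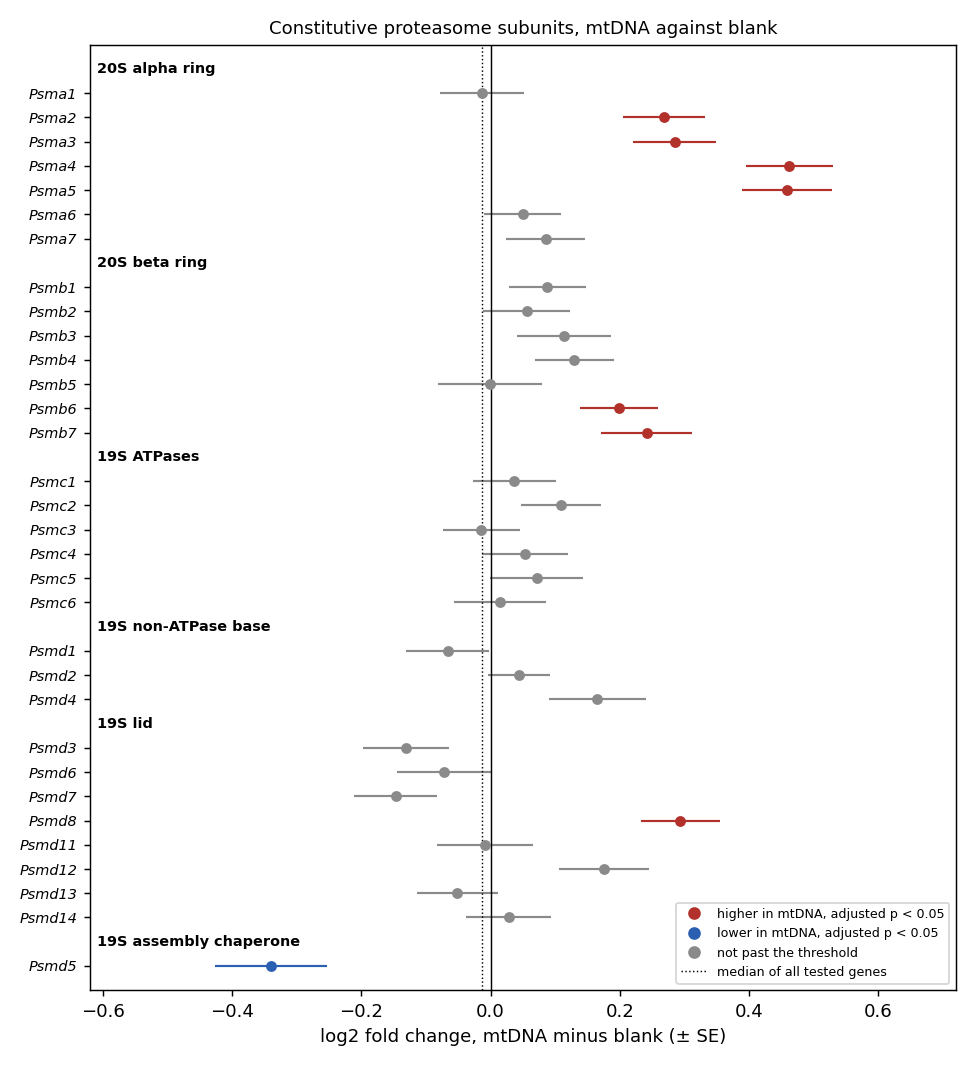
Log2 fold change of each of the 32 members, mtDNA minus blank, with its SE, by subcomplex. The horizontal axis is the log2 fold change on the TMM scale, red points passed the test as higher, the blue point as lower, and the dotted line is the median of all tested genes at -0.01. Of the 7 red points 6 are core subunits, and Psmd8 is the red point of the cap.

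The alpha ring had a median log2 fold change of 0.27, the largest of the subcomplexes, and 4 of its 7 genes rose. The outer alpha rings close the channel of the core and bind the caps. Psma4 (ENSMUSG00000032301), whose yeast counterpart carries a tail that takes part in closing the gate, had 145, 128 and 146 CPM in the mtDNA libraries, against 95.4, 103 and 106 CPM in the blank libraries. Every mtDNA library lay above every blank library. The log2 fold change was 0.46 ± 0.068 (SE; edgeR adjusted p = 2.39e-05), a 1.38-fold rise and the largest of the 32.

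Psma5 (ENSMUSG00000068749) had 110, 120 and 107 CPM in mtDNA and 83.6, 76.7 and 85.2 CPM in blank libraries. The groups again did not overlap, and the gene rose 1.37-fold (log2 0.46 ± 0.070, edgeR adjusted p = 3.72e-05). Psma3 (ENSMUSG00000060073) had 106, 103 and 103 CPM in mtDNA and 83.1, 85.4 and 87.4 CPM in blank libraries. Both groups were tight, and the 1.22-fold rise (log2 0.28 ± 0.064, edgeR adjusted p = 0.00267) was larger than the spread within either. Psma2 (ENSMUSG00000015671) had 156, 140 and 157 CPM in mtDNA and 131, 122 and 123 CPM in blank libraries, with no overlap and a 1.205-fold rise (log2 0.27 ± 0.063, edgeR adjusted p = 0.00411). Under library totals the calls of Psma2 (adjusted p = 0.0774) and Psma3 (0.0591) ended, while those of Psma4 and Psma5 held in all 16 alternatives tried.

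The other alpha ring genes did not pass and overlapped between groups. Psma1 averaged 139 ± 11.04 CPM in mtDNA and 140 ± 5.70 CPM in blank libraries (SD, n = 3 each), Psma6 159 ± 9.80 and 153 ± 2.63 CPM, and Psma7 146 ± 5.96 and 138 ± 7.37 CPM. Their log2 fold changes were -0.01, 0.05 and 0.09. Summed over the ring, the level was 950 ± 31.0 CPM in mtDNA and 824 ± 19.6 CPM in blank libraries (SD, n = 3 each). Per library total the ring was also higher in every mtDNA library, at 883 to 924 CPM against 841 to 882 CPM in blank libraries.

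**Figure D2:**
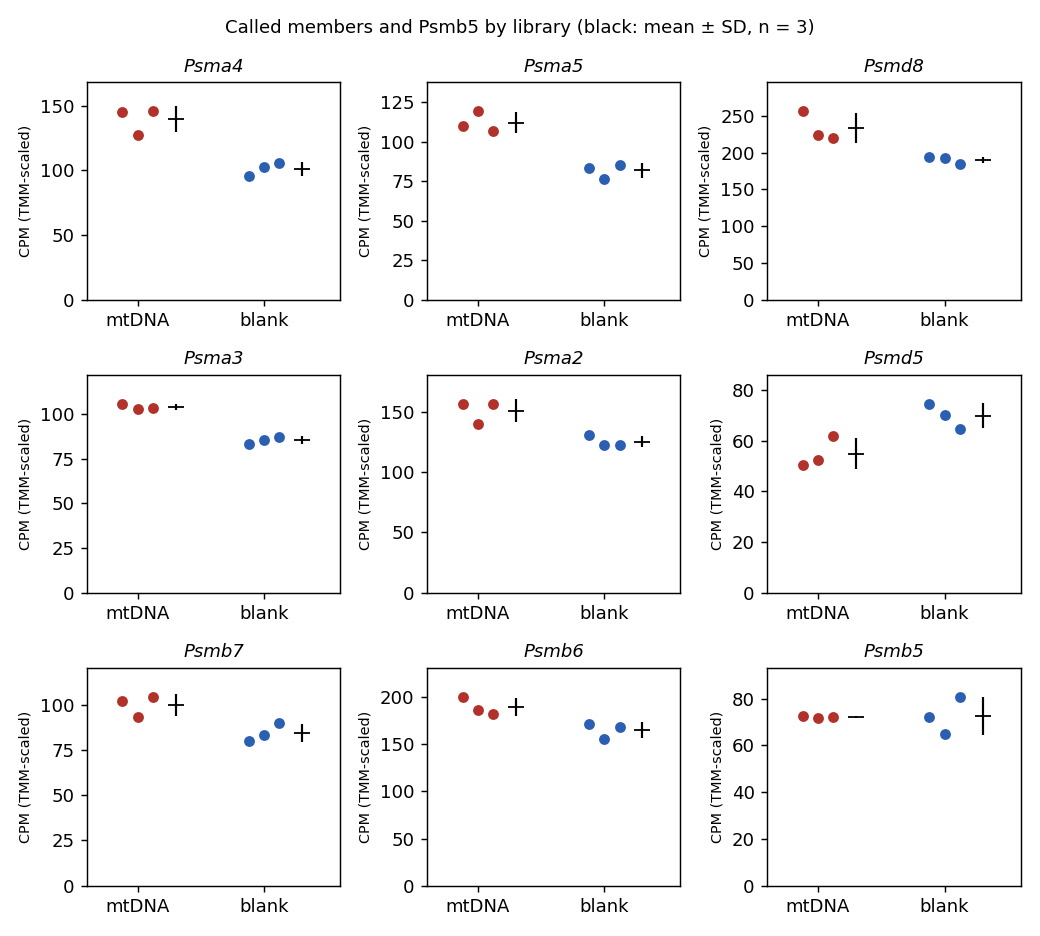
TMM-scaled CPM of the 8 members that passed the test and of Psmb5, by library. Red points are mtDNA libraries, blue points blank libraries, and black marks the mean ± SD over 3 libraries. The 7 risen genes and Psmd5 show no overlap between groups, while the 3 mtDNA libraries of Psmb5 lie within the range of its blank libraries.

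Among the 7 beta ring genes, 2 rose, and both encode catalytic subunits. Psmb6 (ENSMUSG00000018286) carries the caspase-like activity. It had 201, 187 and 182 CPM in mtDNA and 172, 155 and 169 CPM in blank libraries, so the groups were separate, with mtDNA 3 and blank 1 the closest. The rise was 1.148-fold (log2 0.20 ± 0.060, edgeR adjusted p = 0.0249). Psmb7 (ENSMUSG00000026750), with the trypsin-like activity, had 102, 93.2 and 105 CPM in mtDNA and 80.05, 83.6 and 90.01 CPM in blank libraries. It rose 1.18-fold (log2 0.24 ± 0.070, edgeR adjusted p = 0.0195), and mtDNA 2 and blank 3 lay close together.

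These were the least stable of the 8 calls. Each was lost in 8 of the 16 alternatives. Both ended in DESeq2 (adjusted p = 0.111 for Psmb6 and 0.142 for Psmb7) and under upper-quartile factors (0.147 and 0.0954). They also ended under library totals (0.325 and 0.205) and with the summed member counts as library size (0.211 and 0.13). Psmb6 also lost its call without mtDNA 1 (0.108), mtDNA 2 (0.0504), blank 2 (0.127) or blank 3 (0.0538), and Psmb7 without mtDNA 1 (0.061), mtDNA 3 (0.0892), blank 1 (0.085) or blank 2 (0.0594).

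Psmb5 (ENSMUSG00000022193), with the chymotrypsin-like activity and the main target of proteasome inhibitors such as bortezomib, had 72.6, 71.8 and 72.4 CPM in mtDNA and 72.0, 64.7 and 80.9 CPM in blank libraries. The blank libraries enclosed the mtDNA libraries on both sides, and the log2 fold change was -0.00 (95% interval -0.17 to 0.17, edgeR adjusted p = 0.996). The 4 beta ring genes without a catalytic site had log2 fold changes of 0.09 (Psmb1), 0.06 (Psmb2), 0.11 (Psmb3) and 0.13 (Psmb4), all with overlapping groups. Psmb4 was the nearest to the threshold (191 ± 15.3 CPM in mtDNA and 175 ± 2.79 CPM in blank libraries, edgeR adjusted p = 0.162) and passed it in 1 of the 16 alternatives, without mtDNA 1 (adjusted p = 0.0368). The beta ring summed to 895 ± 8.06 CPM in mtDNA and 819 ± 12.1 CPM in blank libraries, but per library total to 851 to 865 CPM in mtDNA and 835 to 868 CPM in blank libraries, which overlapped.

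The inducible counterparts of the 3 catalytic genes all rose, with larger fold changes than the genes they replace. Psmb8, which replaces Psmb5, was 1.69-fold higher in mtDNA cells, Psmb9, which replaces Psmb6, 2.34-fold, and Psmb10, which replaces Psmb7, 2.05-fold (edgeR adjusted p = 7.78e-09, 2.24e-11 and 3e-09). Within a library, reads per exonic kilobase of Psmb8 were 1.155, 1.01 and 1.095 times those of Psmb5 in mtDNA libraries and 0.666, 0.657 and 0.607 times in blank libraries. Whether Psmb8 stood above or below Psmb5 depends on the length used: per kilobase of the longest transcript the ratio was 1.93 ± 0.132 in mtDNA and 1.14 ± 0.0560 in blank libraries (SD, n = 3 each), above 1 in both. Psmb5 shares 40.0% of its windows with other genes and may lose reads there, which would raise the ratio in both groups. The difference between groups is the same with either length.

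The ratio of Psmb9 to Psmb6 was 0.366 ± 0.0258 in mtDNA and 0.180 ± 0.00996 in blank libraries (SD, n = 3 each), and Psmb6 was the more abundant transcript per kilobase with either length. The ratio of Psmb10 to Psmb7 was 2.62 ± 0.212 in mtDNA and 1.51 ± 0.0585 in blank libraries. On the log2 scale the 3 ratios were higher by 0.75 ± 0.071, 1.03 ± 0.076 and 0.79 ± 0.074 (SE), and the groups did not overlap for any of them. Each had an exact two-sided permutation p of 0.1, also after adjustment over the 3 ratios, which is the smallest that 3 against 3 libraries can give. A ratio within a library does not depend on the scaling between libraries.

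**Figure D3:**
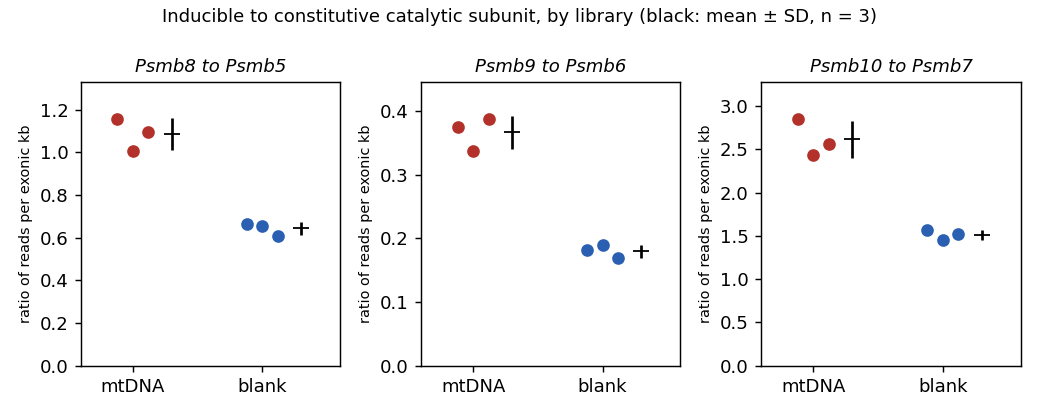
Ratio of reads per exonic kilobase of each inducible catalytic subunit to the constitutive one it replaces, by library, with the mean ± SD in black. In the mtDNA libraries (red) all 3 ratios lie above those of the blank libraries (blue). The level of a ratio, and so its place above or below 1, depends on the annotated lengths, while the difference between groups does not.

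None of the 6 genes of the ATPase ring, which unfolds substrates and opens the gate of the core, passed the test in either direction. At an unadjusted p under 0.05 the count was also 0 in edgeR, in DESeq2 and in limma-voom. The share of all tested genes at an unadjusted p under 0.05 is not given here. Counts at that level therefore have no background to be read against, in this list or the others. Their log2 fold changes were 0.04 for Psmc1, 0.11 for Psmc2, -0.01 for Psmc3, 0.05 for Psmc4, 0.07 for Psmc5 and 0.01 for Psmc6. Psmc2 had no overlap between groups (119 ± 3.13 CPM in mtDNA and 111 ± 4.67 CPM in blank libraries, edgeR adjusted p = 0.255), and the other 5 overlapped. The summed level of the 6 was 635 to 640 CPM in mtDNA libraries, against 594 to 640 CPM in blank libraries.

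The 3 remaining base subunits did not pass either, though at an unadjusted p under 0.05 edgeR counted 1 as higher, Psmd4. Psmd2 is the large scaffold to which ubiquitin shuttle factors dock. It had the highest CPM of the members, 400 ± 4.29 CPM in mtDNA and 388 ± 5.52 CPM in blank libraries, a log2 fold change of 0.04 with a 95% interval of -0.06 to 0.14. Its mtDNA libraries lay just above its blank libraries, at 395 to 402 and 382 to 392 CPM. Psmd1, the other large scaffold, had 129 ± 9.55 and 135 ± 3.79 CPM (log2 -0.07). Psmd4, a receptor that binds ubiquitin chains, had 120 ± 9.52 and 107 ± 10.6 CPM (log2 0.17, edgeR adjusted p = 0.143), without overlap between groups.

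Of the 8 lid genes 1 was higher (12.5%) and 0 were lower, beside 11.9% and 5.98% of all tested genes. At an unadjusted p under 0.05 edgeR counted 1 of the lid genes as lower (Psmd7) and DESeq2 0. Psmd8 (ENSMUSG00000030591), a subunit known in yeast to join the lid last during its assembly, had 257, 224 and 220 CPM in mtDNA and 193, 192 and 185 CPM in blank libraries. The blank libraries were close together and all lay below the mtDNA libraries, of which mtDNA 1 was the highest. Psmd8 rose 1.23-fold (log2 0.29 ± 0.062, edgeR adjusted p = 0.00145) and kept its call in all 16 alternatives.

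Psmd14, the deubiquitinase that removes ubiquitin chains before degradation, had 95.8, 91.9 and 93.8 CPM in mtDNA and 97.2, 89.6 and 89.3 CPM in blank libraries. The mtDNA libraries lay within the range of the blank libraries (log2 0.03, 95% interval -0.11 to 0.17, edgeR adjusted p = 0.824). Psmd7, which pairs with Psmd14, had 87.0 ± 1.41 CPM in mtDNA and 96.3 ± 2.23 CPM in blank libraries, and Psmd3, a structural subunit, 116 ± 9.80 and 127 ± 4.00 CPM. Both had groups that did not overlap, with log2 fold changes of -0.15 and -0.13 that missed the threshold (edgeR adjusted p = 0.125 and 0.202). With upper-quartile factors both passed as lower (adjusted p = 0.0159 for Psmd7 and 0.0315 for Psmd3), and with library totals as well (0.00432 and 0.00788).

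Of the other lid genes, Psmd12 had a log2 fold change of 0.18 (78.2 ± 2.94 CPM in mtDNA and 69.1 ± 1.93 CPM in blank libraries, edgeR adjusted p = 0.0904) with separate groups. Psmd11, which clamps the lid to the core, had -0.01, and the structural subunits Psmd6 and Psmd13 had -0.07 and -0.05. All 3 overlapped between groups, and Psmd13 passed as lower with library totals (adjusted p = 0.0442), as did Psmd1 of the base (0.0314).

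Psmd5 (ENSMUSG00000026869) was the member that fell. Its product is a chaperone that holds part of the base during assembly and leaves before the particle is finished. It had 50.3, 52.5 and 62.0 CPM in mtDNA and 74.6, 70.1 and 64.7 CPM in blank libraries, with mtDNA 3 and blank 3 the closest. On the log2 scale Psmd5 fell by 0.34 ± 0.087 (SE, edgeR adjusted p = 0.00778). DESeq2 did not call it (adjusted p = 0.0584).

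For the 24 members that did not pass, the 95% intervals of the log2 fold change lay between -0.28 and 0.32. On the TMM scale these ends are 0.823-fold and 1.25-fold. Each interval was made for a single gene, so the ends are not a joint 95% bound over the 24. Each member had at least 197 reads in every library. Counted together, members made up 0.395%, 0.387% and 0.392% of all counts in mtDNA libraries and 0.393%, 0.397% and 0.406% in blank libraries. The summed amount therefore had opposite signs by scaling, with 3911 CPM of the library totals in mtDNA cells and 3987 CPM in blank cells, but 4090 ± 82.8 and 3839 ± 45.1 CPM after TMM scaling (SD, n = 3 each). The 20S core genes took 45.0%, 44.9% and 45.5% of the member counts in mtDNA libraries and 42.6%, 42.6% and 43.1% in blank libraries. All 3 mtDNA shares lay above all 3 blank shares, and this measure does not depend on the scaling between libraries. Relative to the summed member counts, Psma3, Psma4, Psma5 and Psmd8 passed as higher and Psmd3, Psmd5 and Psmd7 as lower, beside 8.11% and 15% of all genes. That scaling was chosen after the data were seen.

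The transcript levels of the subunits were unequal although the particle holds most of them in equal number. Per exonic kilobase, the blank libraries ranged from 9.66 ± 0.688 CPM for Psmd5 to 124 ± 2.13 CPM for Psma6 (SD, n = 3), a 12.8-fold range with a median of 40.6 CPM per kilobase. Psmd5 encodes the assembly chaperone, which is not part of the finished particle, and the lowest subunit of the particle was Psmd11 (15.9 ± 1.46). Psma6 stood above Psmd2 (96.0 ± 1.37), which stood above Psmb4 (89.5 ± 1.43). Psmb4, Psmb6, Psmb5, Psmb2 and Psmc1 followed, and neighbours in that order did not differ by more than their combined SD. At the low end, Psmc6 (20.1 ± 0.812), Psmd1 (18.6 ± 0.522), Psmd11 (15.9 ± 1.46) and Psmd5 each differed from the next by more than that. In mtDNA libraries the same genes marked the ends, with 7.60 ± 0.860 CPM per kilobase for Psmd5 and 128 ± 7.94 for Psma6. The order depends on the annotated lengths: with the longest transcript in place of all exons, Psmb6 had rank 1, Psma6 rank 3 and Psmb5 rank 11, and Psmd5 stayed last. By that length the 32 members spanned a 10.8-fold range.

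**Figure D4:**
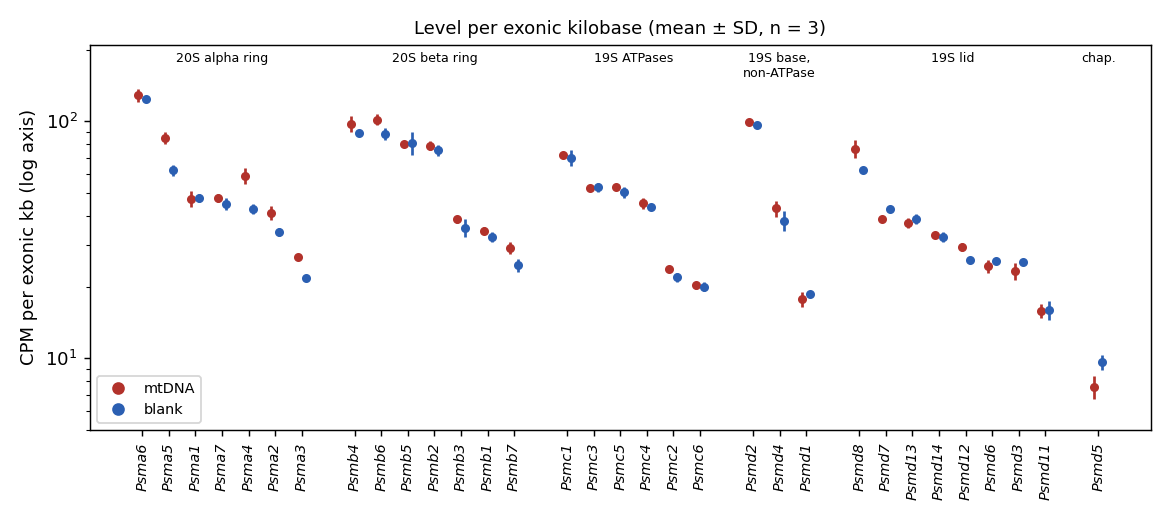
Level of each member per kilobase of annotated exons, in TMM-scaled CPM per kilobase on a log axis, by subcomplex and sorted within it. Red points are the mean of 3 mtDNA libraries, blue points of 3 blank libraries, with SD. Levels differ between members by up to 12.8-fold in blank cells, far more than between mtDNA and blank cells for any of them. The low end of that range is the chaperone gene Psmd5.

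Several members have near-identical copies, from which uniquely mapped reads can be lost. Of the 75-base windows of the longest transcript, 40.0% in Psmb5, 39.8% in Psma5, 21.3% in Psma3 and 16.7% in Psma4 also occur in transcripts of other genes, and in each of them the gene that shares most windows is a processed pseudogene. The rows of those pseudogenes held 0 to 8 reads in mtDNA and 0 to 6 reads in blank libraries. The levels of these members are uncertain, and so is that of Psmd2, which shares 14.9% with Gm5422. Psmd13 shares 14.0% with Sirt3, a protein-coding gene, so its level is uncertain too. Whether that stretch is a copy or an overlap of the genes was not tested.

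In the promoters, 26 of the 32 members had a RefSeq sequence in the table used. Both strands were searched over the 250 bases before the start. A match to the site of nuclear respiratory factor 1 was found in 6 of the 26 (Psma2, Psma3, Psma4, Psmc4, Psmc5 and Psmd14), against 4.23% of 27025 genes. Of the 6 risen members with a promoter sequence, 3 held it, and so did 3 of the 20 others, among them Psmd14, which did not pass the test. In the sequences printed above the motif began 61, 78 and 127 bases before the start of Psma4, Psma3 and Psma2. The CCAAT box was found in 10 of 26, against 37.5% of all genes. TGACNNNGC, the letters of the antioxidant-type element bound by NFE2L1 and NFE2L2, was found in Psmb5, Psmb6, Psmc6 and Psmd12, which is 4 of 26, against 11.5% of all genes. The core of the interferon-stimulated response element was found in none of the 26 members and none of the 5 inducible genes (0.796% of all genes). The GAS element TTCNNNGAA was found in none of the members and in 1 of the 5 inducible genes, Psmb8 (8.13% of all genes). The capitals do not overlap in the printed sequences, and a match of letters is not a binding site.

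Outside the standard particle, the interferon-inducible list was the group of the pathway with the largest median change. All 5 of its genes rose, with a median log2 fold change of 0.88. Beside the 3 catalytic genes these were Psme1 and Psme2, which form the PA28 cap, at 1.64-fold and 1.84-fold (edgeR adjusted p = 3.8e-09 and 1.51e-10). Psme2 shares 51.7% of its windows with Psme2b, so its count is uncertain.

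Among 9 genes of other caps, regulators and cap-associated proteins, 2 rose (22.2%) and 0 fell, beside 11.9% and 5.98% of all tested genes. At an unadjusted p under 0.05 edgeR counted 1 as lower (Psme3), DESeq2 0. Psme4, which encodes the nuclear cap PA200, rose 1.38-fold (167 ± 5.89 CPM in mtDNA and 121 ± 9.88 CPM in blank libraries, edgeR adjusted p = 1.28e-05). Psmf1, which encodes the core-binding protein PI31, rose 1.29-fold (edgeR adjusted p = 0.0125), a call lost in DESeq2 (adjusted p = 0.101), with library totals (0.0631) and without mtDNA 1 (0.0871). The cap subunits left out of the 32, Adrm1 and Sem1, had log2 fold changes of 0.01 and -0.00.

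Of 7 tested assembly chaperones 1 rose (14.3%) and 0 fell, beside 11.9% and 5.98% of all tested genes. At an unadjusted p under 0.05 edgeR counted 2 as lower (Psmg1 and Psmd9), DESeq2 0. Pomp, which guides the beta subunits into the core, rose 1.23-fold, with 179 ± 14.8 CPM in mtDNA and 145 ± 3.68 CPM in blank libraries (log2 0.30 ± 0.064, edgeR adjusted p = 0.00162).

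Of 8 genes around NFE2L1, the transcription factor that raises proteasome subunit genes when proteasome activity falls short, 2 rose (25%) and 1 fell (12.5%). Over all tested genes these shares were 11.9% and 5.98%. Nfe2l1 itself had 192 ± 4.92 CPM in mtDNA and 190 ± 13.8 CPM in blank libraries (log2 0.02, edgeR adjusted p = 0.892). Mafk, a small Maf partner of such factors, rose 1.47-fold (edgeR adjusted p = 0.000336), while its relative Mafg fell, with a log2 fold change of -0.22 (edgeR adjusted p = 0.0113). The Mafg call was lost without blank 1 (adjusted p = 0.0738) and in DESeq2 (0.0612). Syvn1, a ubiquitin ligase of the endoplasmic reticulum that takes part in the turnover of NFE2L1, rose 1.35-fold (edgeR adjusted p = 4.91e-05).

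Of 14 genes of ubiquitin activation and shuttling and related steps, 2 rose and 1 fell, beside 11.9% and 5.98% of all tested genes. Zfand5, which encodes a protein that binds and activates the proteasome, rose 1.26-fold (edgeR adjusted p = 0.000203). Uba1, the main ubiquitin-activating enzyme, rose 1.12-fold (edgeR adjusted p = 0.0379). Its call was lost in 9 of the 16 alternatives, among them DESeq2 (adjusted p = 0.0801) and the omission of mtDNA 1 (0.171), mtDNA 2 (0.0791), blank 1 (0.0571), blank 2 (0.111) or blank 3 (0.0957). Ubqln2, a shuttle factor, fell, with a log2 fold change of -0.36 (edgeR adjusted p = 0.0137). It was not called without mtDNA 1 (adjusted p = 0.057), mtDNA 3 (0.0812) or blank 3 (0.0666), nor in DESeq2 (0.0996).

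**Figure D5:**
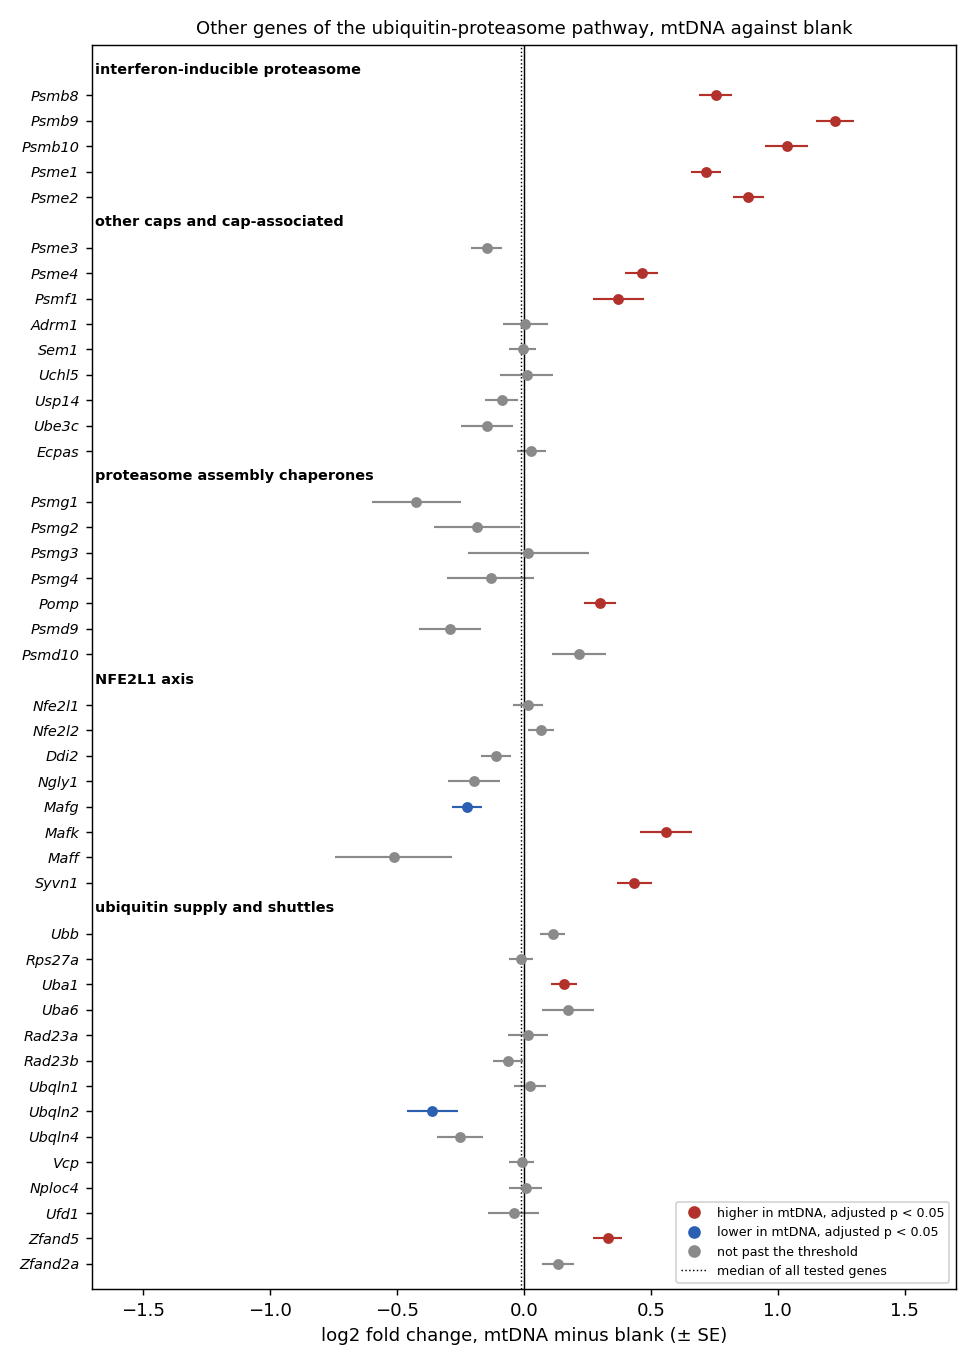
Log2 fold change with SE of other tested genes of the ubiquitin-proteasome pathway, mtDNA minus blank, by list. Red points passed the test as higher, blue points as lower, and the dotted line is the median of all tested genes. The 5 interferon-inducible genes lie between 0.72 and 1.23, to the right of all other genes shown.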

How the data were processed

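Libraries of poly(A) RNA were read from 1 end over 75 bases, per the labels' protocols. The table deposited by the authors holds raw read counts, without scaling. The submitters' processing notes name STAR 2.7.10a, GRCm39, FastQC and DESeq2, and per the file headers the columns follow STAR's gene count files. Neither the annotation release nor the strand setting is given in the sources used here, so overlapping genes on opposite strands may share reads. Unique mapping can lose reads of genes with near-identical copies. Symbols, lengths, GC content and shared windows came from GENCODE M21 (GRCm38), which matched 52083 of 55359 IDs, and no coordinates were transferred between builds. Paaf1 was not analysed here.

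Groups came from the treatment label. edgeR 4.0.16 in R 4.3.3 was fitted to all 6 libraries with its default filter and TMM factors. The SE was taken from the fold change and the F statistic, and the biological coefficient of variation was 4.54%. Replicate libraries were not duplicates of each other: chi-square over degrees of freedom lay between 1.54 and 2.28 for the 6 pairs, above the 1 that counting error gives. Ratios were tested by exact permutation over the 20 assignments with scipy 1.17.1. Tests were first run on simulated data. Alternatives used DESeq2 1.42.0, limma 3.58.1 (voom), other factors and filters, a GC correction, a block and omission of each library. Scaling by the summed member counts and ratios by longest transcript were added after seeing the data. The members and lists were chosen with earlier results of these data known. All members are named, with values per library for the 6 called members of smallest p and for Psmb5, Psmb6, Psmb7 and Psmd14. Psmb8 to Psmb10, Psme1, Psme2, Pomp and Nfe2l1 are named whatever their result, and other pathway genes where they passed, except for 2 genes of the ubiquitin list that are not reported here. Genes named beyond that rule were chosen after their values were seen.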

Additional observations from a re-analysis of the deposited data

How the results depend on the processing

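Across 16 alternative settings the 32 members gave 512 values, of which 20 lost a call, 9 gained one and none passed in the opposite direction. In 48 of them a member that passed in neither setting changed sign. The block of neighbouring title numbers changed no member call (7 higher and 1 lower). Over all genes it gave 1387 higher and 747 lower, against 1327 and 669 without it. Deviations of libraries with neighbouring numbers correlated at 0.040 to 0.045, with no other pairings set beside them. The main fit did not take the numbers as pairs, and whether they mark a shared batch was not tested. The labels give the groups no shared replicate numbers. Members called higher numbered 3 with library totals and 4 with summed member counts as library size, and 5 or 6 when a library was left out. Members called lower numbered 3 with upper-quartile factors, 5 with library totals, 3 with summed member counts and 0 in DESeq2, where 1 had an unadjusted p under 0.05. The member median became -0.021 with upper-quartile factors, -0.064 with library totals and -0.036 with summed member counts, and the difference in summed member level was -76.0 CPM of the library totals against 251.3 CPM with TMM scaling. Over all genes, 861 were higher with library totals. Those lower were 1504 with upper-quartile factors, 2356 with library totals, 1675 with summed member counts and 173 in DESeq2, and 410 to 522 when a library was left out. By construction a change of scaling shifts all genes alike. Why single calls moved, with scaling or in DESeq2, was not tested. At 4018360 to 4911103 counts per library, the median SE of a member was 0.066 on the log2 scale. The 3 catalytic ratios stayed at 0.71 to 0.81, 0.98 to 1.085 and 0.73 to 0.84 when a library was left out.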
